A study of Sus scrofa with 33 samples.

Results

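The expression of the swine major histocompatibility complex (MHC) and of its partner genes was described probe by probe in the pig pituitary. The 10 genes were the class I heavy chains SLA-1, SLA-2 and SLA-3, the class II chains SLA-DRA, SLA-DRB1, SLA-DQA1 and SLA-DQB1, the peptide-exchange chain SLA-DMA, the class I light chain B2M and the invariant chain CD74. A probe was a member when the gene name or the description in the array files named 1 of these genes, which gave 47 of the 60305 probes of the design. All 47 were among the 45667 probes of the deposited table, and all were well above background on each of the 33 arrays, as were 89.2% of that table. They covered 9 of the 10 genes, with 9 probes for B2M, 8 for SLA-3, 7 each for SLA-1 and SLA-DRA, 4 each for SLA-DRB1, SLA-DQB1 and CD74, and 2 each for SLA-DQA1 and SLA-DMA. No probe was named SLA-2. A further 12 probes carried another name in the files but listed a transcript of these genes or the full name of the B2M protein. They were 7 SLA-DQA, 4 B2M and 1 class I probe that lists an SLA-2 transcript among its targets, and are given separately.

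Pituitary RNA of castrated male pigs raised in Guadeloupe was labelled with Cy3 and hybridised to a 1-colour Agilent array, 1 array per pig. Pigs were Large White (LW), Creole (CR, a local breed of Guadeloupe) or their F1 cross, and were slaughtered either under thermoneutral conditions (TN) or after several days in the heat (heat stress, HS). The groups held 5 LW TN, 6 LW HS, 5 CR TN, 6 CR HS, 6 F1 TN and 5 F1 HS arrays, so 11 arrays per breed, 16 TN and 17 HS. The labels give 24 °C for TN and 30 °C for HS, where the text of the series gives a higher temperature for HS. All TN pigs were slaughtered before the temperature rose and all HS pigs after it, so age and slaughter day cannot be told apart from the temperature. By the methods of the study the pigs came in sets of littermates, a few sets per breed, and pens held pigs of a single breed. The 11 arrays of a breed are thus not independent, and breed cannot be told apart from litter and pen. The labels name no litter, so the fits take the pigs as unrelated, although some were related. The p-values between breeds can therefore be too small. The labels of LW HS 3 disagree, with Large White in its title but Creole in its breed field. It was analysed as LW, and results that rest on it are given with and without it.

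MHC class I molecules consist of a polymorphic heavy chain bound to B2M and show peptides from inside the cell on nearly all nucleated cells. Class II molecules consist of an alpha and a beta chain, are assembled with the invariant chain CD74, receive their peptide with the help of the DM molecule, and are mostly made by dendritic cells, macrophages and B cells. The heavy chains and several class II chains are among the most polymorphic proteins known, so a probe of fixed sequence can bind the transcript of one allele better than that of another, and a difference between breeds on a single probe can be a difference in level or in sequence, which these arrays cannot tell apart.

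Probes of 60 bases are printed as the array files list them, 5′ to 3′, since overlapping probes can differ in a few letters. The SLA-3 and B2M probes below differed between breeds.
SLA-3 A_72_P517623: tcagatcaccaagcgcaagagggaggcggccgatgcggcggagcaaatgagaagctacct
B2M A_72_P709927: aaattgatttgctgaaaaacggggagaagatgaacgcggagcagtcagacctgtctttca
The next probes carry the names SLA-1 and SLA-3 but overlap by 59 bases, of which the 4 in capitals differ.
SLA-1 A_72_P440391: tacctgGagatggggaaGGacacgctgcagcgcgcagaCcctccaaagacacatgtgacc
SLA-3 A_72_P440386: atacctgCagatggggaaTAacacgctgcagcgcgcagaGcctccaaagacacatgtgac
Another pair, of the DQ alpha chain, overlaps by 59 bases with 5 differences, again in capitals.
SLA-DQA1 A_72_P743257: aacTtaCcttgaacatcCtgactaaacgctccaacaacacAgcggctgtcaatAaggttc
SLA-DQA A_72_P763148: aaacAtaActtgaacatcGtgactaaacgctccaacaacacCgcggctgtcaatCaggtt
The chains of the DR molecule gave probes that followed each other closely, of which these are the ones nearest the start of their transcript.
SLA-DRA A_72_P561324: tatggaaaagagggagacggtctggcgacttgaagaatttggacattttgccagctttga
SLA-DRB1 A_72_P079096: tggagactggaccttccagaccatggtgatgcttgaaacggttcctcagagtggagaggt

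Values below are log2 intensities of the deposited table, and a difference of 1 is a doubling of intensity. Values of different probes are not set against each other. The share of spots well above background ran from 73.5% to 82.2% over the arrays, and 0 spots were saturated. Probes of the pituitary hormones GH1, PRL, POMC and CGA, which mark the gland, were well above background on all 33 arrays. So were AVP and OXT, which mark the posterior lobe, although the methods name the anterior lobe as the tissue. Differences were fitted with limma over all 45667 probes with breed and temperature in the model, and p-values were adjusted over all of them by the Benjamini-Hochberg method with a threshold of 0.05.

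SLA-3, a class I heavy chain, gave the largest breed differences among the 47 probes. On A_72_P517623 the LW arrays lay between 10.56 and 11.85 (median 11.36), the F1 arrays between 9.69 and 11.88 (median 10.96) and the CR arrays between 8.56 and 11.21 (median 9.83). LW was higher than CR by 1.42 ± 0.27 (SE, n = 11 per breed), or 2.67-fold (limma adjusted p = 0.00084). The breeds overlapped on this probe, since CR TN 3 and CR TN 4 reached 11.21 and 11.11. On A_72_P625308 the LW arrays lay between 12.37 and 13.94 (median 12.95), the F1 arrays between 11.53 and 13.12 (median 12.70) and the CR arrays between 10.91 and 12.94 (median 11.60). LW was higher than CR by 1.25 ± 0.20 (limma adjusted p = 0.00012), and all LW arrays but LW HS 4 lay above all CR arrays but CR HS 5, the highest of its breed at 12.94. LW was above CR within each of the 5 slides on both probes, by 0.69 to 2.29 on the first and by 0.66 to 1.97 on the second.

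The other 6 SLA-3 probes did not pass the threshold between LW and CR, with fitted differences from 0.06 to 0.83. On the brightest of them, A_72_P649741, the LW arrays lay between 15.00 and 15.85 (median 15.36), the F1 arrays between 14.55 and 15.83 (median 15.19) and the CR arrays between 14.49 and 15.88 (median 15.02), so the LW range lay within the CR range. Overlapping probes could give unlike values. A_72_P682906 shares 42 bases with A_72_P625308 without a mismatch, but its difference was 0.58 ± 0.30 (limma adjusted p = 0.30), and the deviations of these probes from their group means correlated with r = 0.56 over the 33 arrays (a description). In all, 6 of the 47 probes (12.8%) passed between LW and CR, against 6.65% of all 45667 probes. Of these, 5 were higher in LW (3.61% of all probes), namely 2 of SLA-3 and 3 of B2M, and 1 of SLA-DQB1 was lower (3.05% of all probes). The B2M probes A_72_P441589 and CUST_232_PI427286967 share 59 bases, so the 6 calls are not independent. At an unadjusted p under 0.05 the count was 13 of 47, against 18.7% of all probes. The array ranges of LW and CR did not separate completely on any of the 47 (0.287% of all probes). Taking LW HS 3 as Creole left 2 calls, both of SLA-3, and leaving it out left 6.

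**Figure D1:**
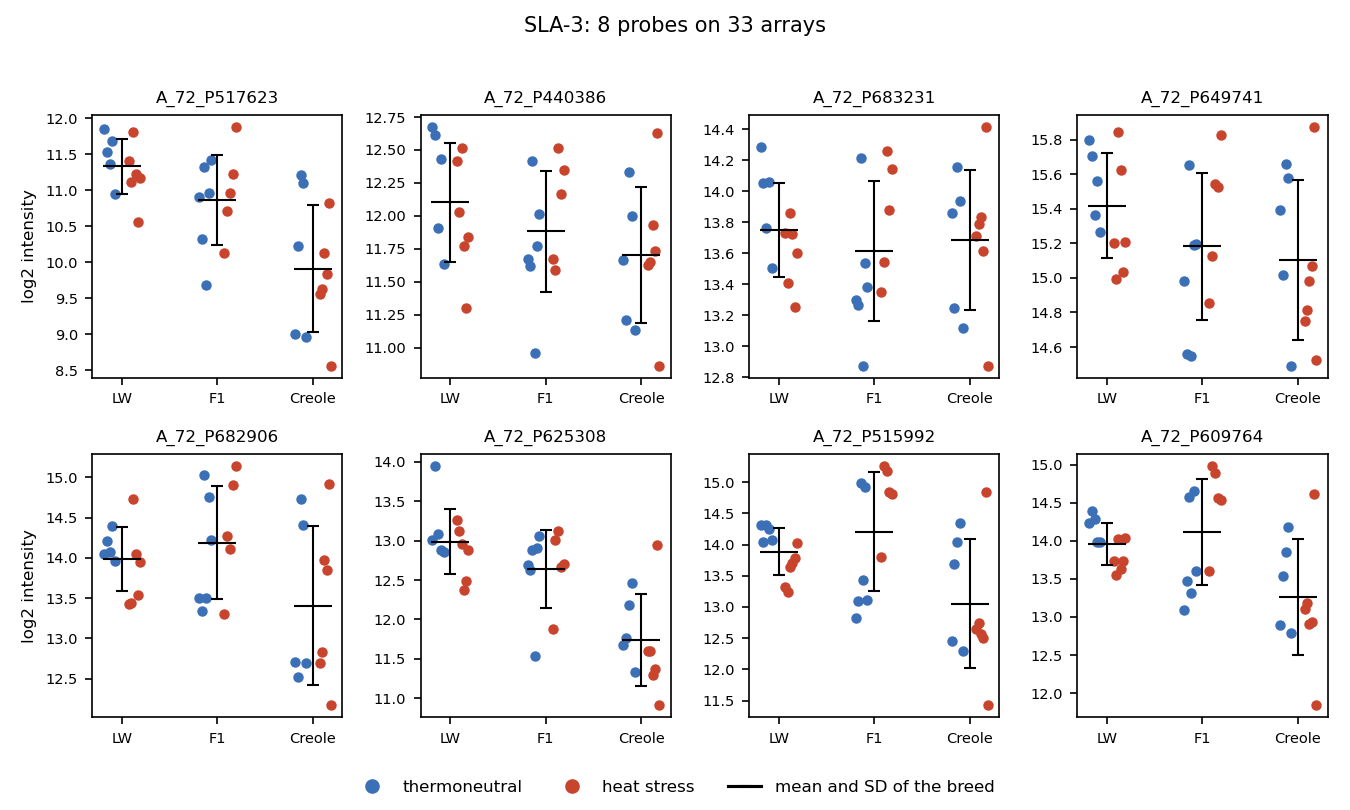
Log2 intensity of the 8 SLA-3 probes on each of the 33 arrays by breed (blue, thermoneutral; red, heat stress; bars, mean and SD of the 11 arrays of a breed; each panel has its own axis). On A_72_P517623 and A_72_P625308 most CR arrays lie below the LW arrays, while on A_72_P683231 the breeds cover the same range.

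The F1 arrays were compared with each parent breed. Against CR, 5 of the 47 probes passed (10.6%, against 6.86% of all probes), namely 4 of SLA-3, all higher in F1 (3.48% of all probes), and 1 of SLA-DQB1, lower in F1 (3.39% of all probes). At an unadjusted p under 0.05 the count was 10 of 47, against 21.8% of all probes. F1 was above CR by 0.94 ± 0.27 on A_72_P517623 (limma adjusted p = 0.031) and by 0.89 ± 0.20 on A_72_P625308 (limma adjusted p = 0.0071). On A_72_P515992 the CR arrays lay between 11.42 and 14.85 (median 12.64), the F1 arrays between 12.82 and 15.25 (median 14.80) and the LW arrays between 13.24 and 14.31 (median 14.03). F1 was above CR by 1.15 ± 0.34 (limma adjusted p = 0.036). The SD over the 11 arrays of a breed was 0.38 in LW, 0.95 in F1 and 1.03 in CR, so the LW arrays lay close together where the others did not. A_72_P609764, which overlaps it by 57 bases with 2 mismatches, gave an F1 minus CR difference of 0.86 ± 0.25 (limma adjusted p = 0.034), with CR arrays from 11.84 to 14.62 (median 13.11), F1 arrays from 13.09 to 14.98 (median 14.54) and LW arrays from 13.55 to 14.39 (median 13.99). Between any pair of breeds 12 of the 47 probes passed (25.5%, against 11.4% of all probes), in comparisons that share arrays. They were probes of B2M, SLA-3 and SLA-DQB1, and some overlap in sequence or were designed on 1 cDNA clone. These 12 and the 5 calls against CR are thus not independent, and the shares count some sequences more than once. The number of calls against CR depended on single arrays. It was 2 without CR HS 1, CR TN 1, CR TN 5, CR HS 6 or F1 HS 5, and 3 without F1 HS 2, CR HS 2, CR HS 3, CR HS 4, F1 TN 3 or F1 TN 5. With LW HS 3 taken as Creole it was 2.

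B2M, the light chain shared by all class I molecules, had fitted LW minus CR differences above 0 on all 9 probes, from 0.21 to 0.47, and 3 of them passed the threshold as higher in LW. On CUST_232_PI427286967, the brightest, the LW arrays lay between 16.56 and 17.43 (median 16.77), the F1 arrays between 16.22 and 17.00 (median 16.58) and the CR arrays between 16.31 and 16.84 (median 16.43). LW was above CR by 0.42 ± 0.09 (limma adjusted p = 0.0033). A_72_P441589, which shares 59 bases with it, gave 0.47 ± 0.10 (limma adjusted p = 0.0018), with LW arrays from 16.28 to 17.11 (median 16.46) and CR arrays from 15.92 to 16.54 (median 16.03). A_72_P709927, in the coding part printed above, gave 0.46 ± 0.10 (limma adjusted p = 0.0020), with LW arrays from 15.83 to 16.63 (median 16.06) and CR arrays from 15.46 to 16.09 (median 15.62). Within each of the 5 slides LW lay above CR on these 3 probes, by 0.25 to 0.71. A probe that the files name B2Mb, CUST_40_PI427286967, has the same 60 bases as CUST_232_PI427286967 and gave 0.45 ± 0.09 (limma adjusted p = 0.0015). The other 3 B2M probes outside the 47 gave 0.18 to 0.21 and did not pass. On each of the 3 member probes that passed, the highest LW value was that of LW HS 3. With that array taken as Creole the differences were 0.30, 0.34 and 0.34 and none passed (limma adjusted p = 0.12, 0.085 and 0.081). With that or any other single array left out, all 3 still passed (highest limma adjusted p = 0.0076, 0.0042 and 0.0050).

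F1 was below LW on 4 B2M probes, the members that passed in that comparison (8.51%, against 1.48% of all probes, of which 0.926% were lower in F1 and 0.55% higher). All 4 were designed on 1 cDNA clone and are not independent, so the share of 8.51% rests on that clone. At an unadjusted p under 0.05 the count was 12 of 47, against 13.9% of all probes. On A_72_P729383 the LW arrays lay between 13.69 and 14.44 (median 14.11), the F1 arrays between 12.96 and 14.00 (median 13.71) and the CR arrays between 13.62 and 14.30 (median 13.74), and F1 was lower than LW by 0.55 on the log2 scale (difference -0.55 ± 0.11, limma adjusted p = 0.011). The difference was -0.54 on A_72_P739834, where LW arrays lay between 13.39 and 14.28 (median 13.89) and F1 arrays between 12.69 and 14.01 (median 13.48), with an adjusted p by limma of 0.031. It was -0.50 on A_72_P748495, where LW arrays lay between 13.58 and 14.48 (median 14.09) and F1 arrays between 12.90 and 14.17 (median 13.68), with an adjusted p by limma of 0.035. The fourth was A_72_P725653 at -0.45 (limma adjusted p = 0.023). On all 4 the F1 mean lay below the LW mean within each of the 5 slides. The position of F1 varied with the probe. On the 5 probes designed on that cDNA clone, the F1 mean lay below both parents, with F1 minus CR differences of -0.27 to -0.13 that did not pass. On the 2 designed on the RefSeq transcript the F1 mean lay between the parents, with F1 minus CR differences of 0.16 and 0.19 that did not pass either. The RefSeq table used for names lists 2 gene records called B2M, and these files do not say which of them each probe measures. The number of calls against LW was 1 without F1 HS 2, 7 without F1 HS 3, and 2 without F1 HS 1, LW HS 1, LW HS 2, LW HS 3, LW TN 3, F1 TN 2 or F1 TN 4. It was 1 with LW HS 3 taken as Creole and 1 with the processed intensity of the scanner.

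Markers of other cell types, which also carry class I molecules, moved with breed in part. Of the 11 measured myeloid cell markers, 2 passed between LW and CR (7.19% of all named genes did), both higher in LW. They were C1QA (difference 0.39, limma adjusted p = 0.010) and FCER1G (difference 0.43, limma adjusted p = 0.039). The differences of CD163 (-0.49, limma adjusted p = 0.054), CD14 (-0.17) and LYZ (-0.14) had the other sign, and the mean of the 11 ranged from 8.66 to 9.55 in LW arrays and from 8.75 to 9.44 in CR arrays. Of 5 measured endothelial markers, 2 were higher in LW, namely KDR (difference 0.94, limma adjusted p = 3.9e-05) and CDH5 (difference 0.41, limma adjusted p = 0.045). The 5 differences ran from -0.16 to 0.94, so not all had the same sign. The mean of the 5 ranged from 9.72 to 11.01 in LW arrays and from 9.57 to 10.55 in CR arrays. Of 3 measured NK cell markers NKG7 was higher in LW (difference 0.27, limma adjusted p = 0.013), and none of the measured T cell, B cell or general leukocyte markers passed. The part of these markers in the B2M values was not tested.

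**Figure D2:**
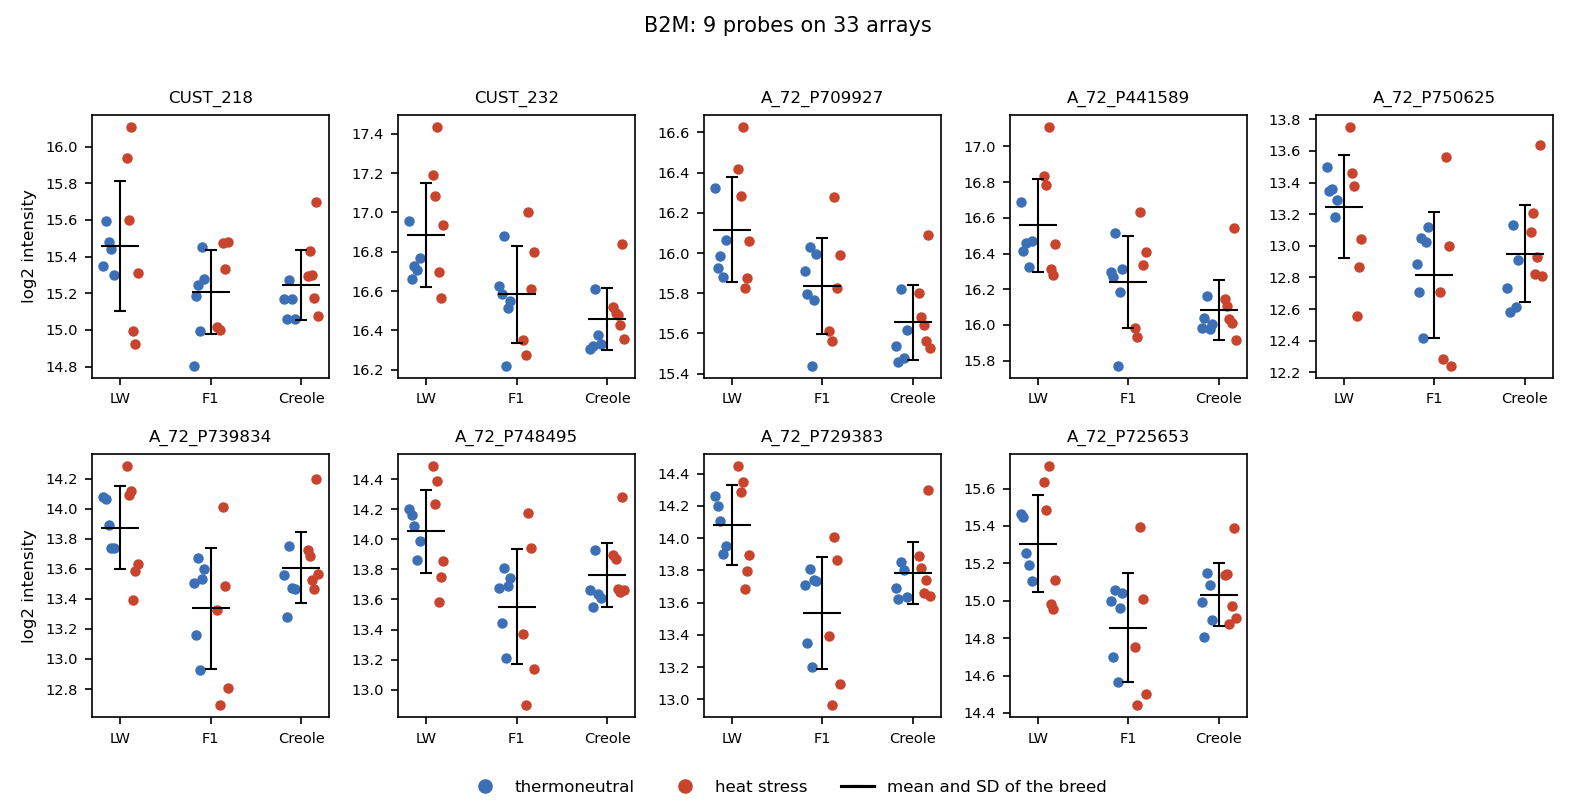
Log2 intensity of the 9 B2M probes on each of the 33 arrays by breed (blue, thermoneutral; red, heat stress; bars, mean and SD of the 11 arrays of a breed; each panel has its own axis). LW arrays are the highest on average in every panel, and the F1 mean lies below the CR mean on CUST_218 and on the 5 probes of the cDNA clone, from A_72_P750625 to A_72_P725653.

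SLA-1, the other class I heavy chain with its own probes, passed between no breeds on any of its 7 probes, with LW minus CR differences from -0.15 to 0.20 (smallest limma adjusted p = 0.67). On the brightest, CUST_30_PI427286967, the LW arrays lay between 16.47 and 17.50 (median 17.06), the F1 arrays between 16.41 and 17.35 (median 16.97) and the CR arrays between 16.33 and 17.64 (median 17.17). The 95% interval of LW minus CR on it was -0.34 to 0.24. Of the 15 probes of SLA-1 and SLA-3, 10 list several targets, 3 of these an SLA-2 transcript, and 1 of the 15 lists the transcript of the other gene. The pair of SLA-1 and SLA-3 probes printed above, which differs by 4 bases, followed the same arrays (r = 0.90 between deviations from group means) while giving LW minus CR differences of -0.03 and 0.40. The class I probe that lists SLA-2 without being named for it gave -0.02 ± 0.15.

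A_72_P124686, an SLA-1 probe, was the only one of the 47 whose 33 values fell apart by more than 1 log2 unit with at least 3 arrays on each side (0.232% of all probes). LW HS 4 (10.91), CR TN 2 (10.85) and CR HS 5 (11.84) stood above the gap and the other 30 arrays at or below 9.80, so the high side held 1 LW, 2 CR and 0 F1 arrays.

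The DQ chains, alpha and beta chains of a class II molecule, differed between breeds in the other direction on some probes. On the SLA-DQB1 probe A_72_P631166 the CR arrays lay between 6.56 and 7.66 (median 7.28), the LW arrays between 6.26 and 7.18 (median 6.83) and the F1 arrays between 6.31 and 6.98 (median 6.77). LW was lower than CR (difference -0.47 ± 0.11, limma adjusted p = 0.0079), as was F1 (difference -0.54 ± 0.11, limma adjusted p = 0.0037), and within each of the 5 slides the CR mean was the higher in both contrasts. With LW HS 3, the lowest array of all on this probe, taken as Creole, the LW difference was -0.33 (limma adjusted p = 0.16). Leaving out that or any other single array gave -0.54 to -0.41, all of which passed (highest limma adjusted p = 0.018). All values of A_72_P631166 lay below the lowest array median over all probes, 8.31, so this call rests on a dim probe. The other 3 SLA-DQB1 probes gave -0.37, -0.33 and 0.00 (-0.005, on the brightest) and did not pass. The brightest of them, A_72_P039061, held LW arrays from 11.41 to 12.81 (median 11.97), F1 arrays from 11.47 to 12.50 (median 12.09) and CR arrays from 11.66 to 12.77 (median 11.96).

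Both SLA-DQA1 probes pointed in opposite directions, -0.66 ± 0.37 on A_72_P743257 and 0.58 ± 0.34 on A_72_P765361, and neither passed (limma adjusted p = 0.36 and 0.38). Their deviations from group means were not related across the arrays (r = -0.10). On A_72_P743257 the CR arrays lay between 5.72 and 9.55 (median 9.09), the LW arrays between 6.47 and 8.60 (median 8.13) and the F1 arrays between 7.62 and 9.17 (median 8.14). CR TN 1 (5.72), CR HS 6 (6.18) and LW TN 2 (6.47) were the lowest of the 33 arrays. Of the 12 probes outside the 47, 4 passed between LW and CR (6.65% of all probes did), namely the B2Mb probe above and 3 of the 7 SLA-DQA probes. These 3 were lower in LW (3.05% of all probes were), by -0.49 ± 0.15 on A_72_P712598 (limma adjusted p = 0.038), -0.60 ± 0.14 on A_72_P746609 (limma adjusted p = 0.0069) and -0.52 ± 0.13 on A_72_P750437 (limma adjusted p = 0.011). A_72_P746609 was also lower in F1 than in CR (difference -0.49 ± 0.14, limma adjusted p = 0.033), the sole probe of the 12 to pass there. The 3 SLA-DQA probes lower in LW start at bases 503, 528 and 555 of their targets, closer than their length of 60 bases. They can thus read the same stretch and are not independent. The SLA-DQA probes that start at 310, 860, 1012 and 1068 did not pass, with LW minus CR differences from -0.35 to 0.30. A_72_P763148, which differs from A_72_P743257 at the 5 capital letters above, gave 0.30 ± 0.22 where the latter gave -0.66.

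SLA-DRA and SLA-DRB1, the chains of the DR molecule, did not pass between any breeds on any of their 11 probes. On the brightest SLA-DRA probe, A_72_P640825, the LW arrays lay between 11.88 and 13.78 (median 12.84), the F1 arrays between 11.91 and 13.19 (median 12.76) and the CR arrays between 12.28 and 13.24 (median 12.91), and LW minus CR was 0.00 (0.00008) with a 95% interval from -0.33 to 0.33. On the brightest SLA-DRB1 probe, A_72_P545751, the LW arrays lay between 10.995 and 13.15 (median 11.97), the F1 arrays between 11.25 and 12.47 (median 12.21) and the CR arrays between 11.34 and 13.08 (median 12.03), with an interval from -0.36 to 0.45. CD74, the invariant chain, was lower in LW than in CR on its 4 probes by differences of -0.12 to -0.18 that did not pass. On A_72_P395573 its LW arrays lay between 9.37 and 10.51 (median 9.88), its F1 arrays between 9.53 and 10.13 (median 9.83) and its CR arrays between 9.50 and 10.68 (median 10.05). SLA-DMA gave -0.06 and 0.00 (0.002), and on A_72_P025111 LW arrays lay between 9.94 and 11.34, F1 arrays between 10.29 and 10.81 and CR arrays between 10.18 and 11.15.

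**Figure D3:**
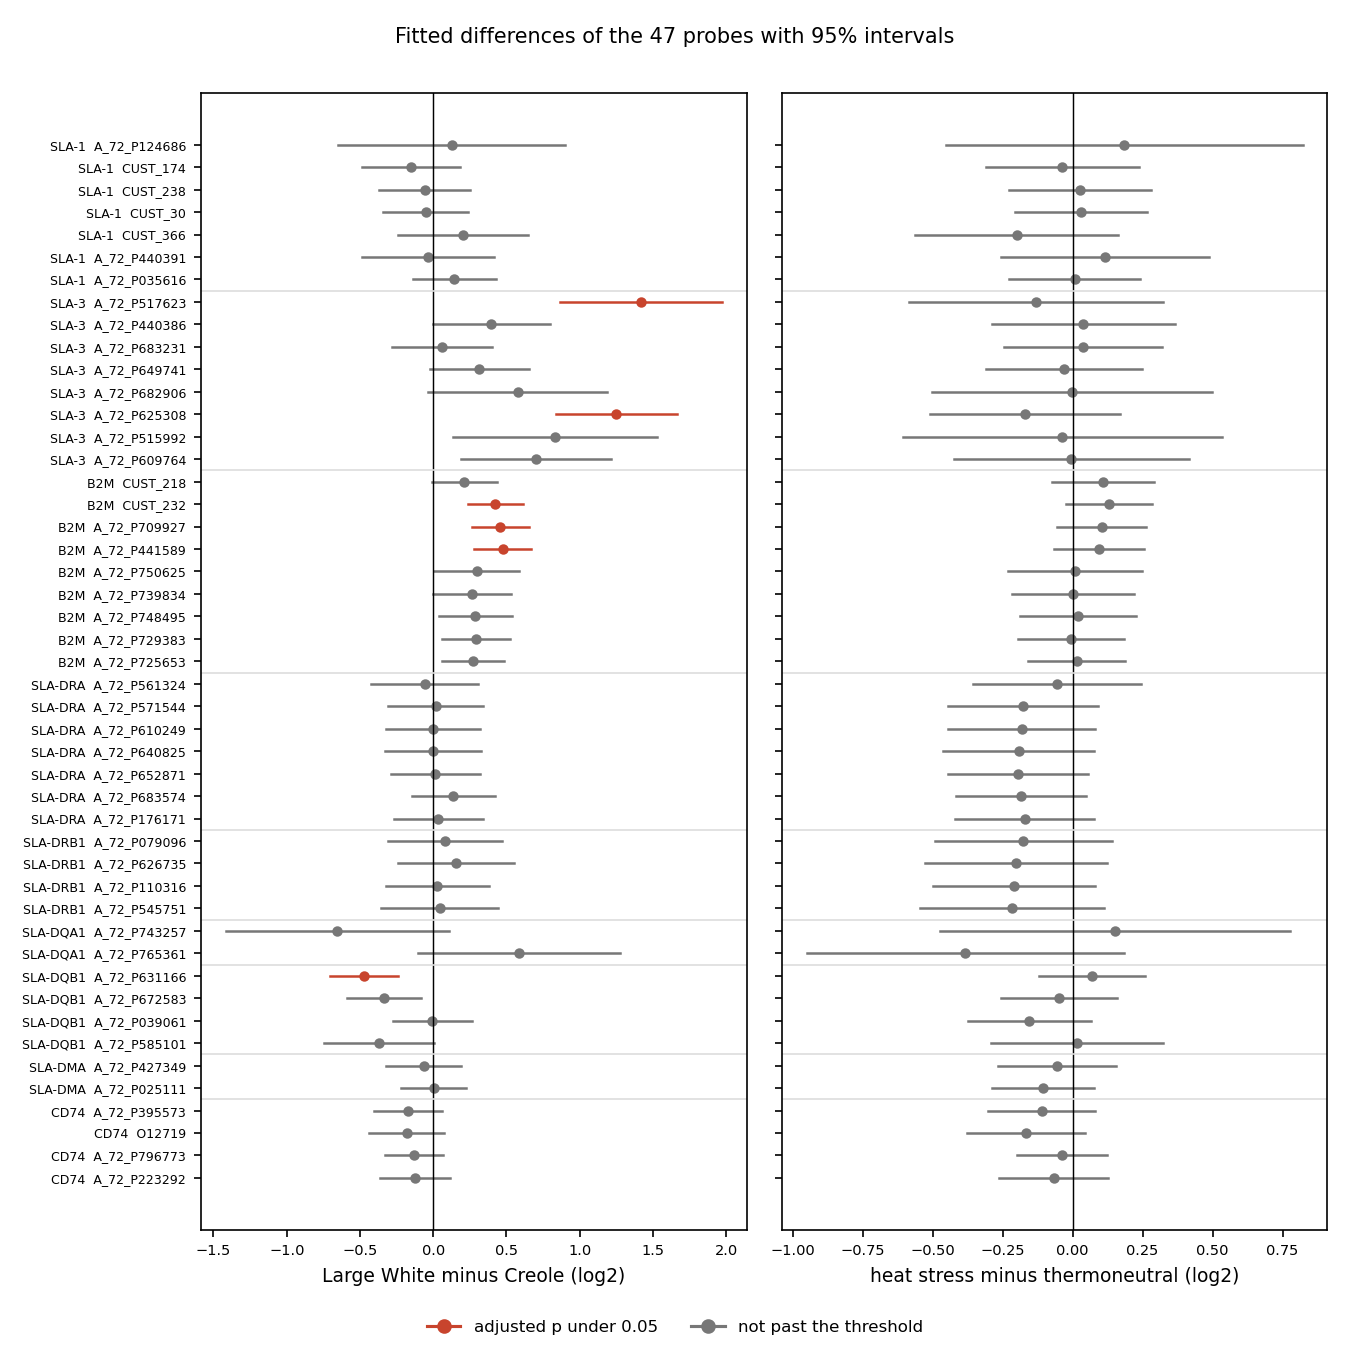
Fitted log2 differences of the 47 probes with 95% intervals, Large White minus Creole on the left and heat stress minus thermoneutral on the right (red, adjusted p under 0.05; grey, not past the threshold; the horizontal scales differ). On the left 5 probes lie above 0 and 1 below it in red, and on the right every interval includes 0.

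Under heat stress 0 of the 47 probes passed the threshold by limma, against 0.0219% of all probes, and at an unadjusted p under 0.05 the count was also 0 (8.77% of all probes). In the fit over all breeds, the differences of the DR chains, SLA-DMA and CD74 had 1 sign. All 7 SLA-DRA probes (-0.06 to -0.19), all 4 of SLA-DRB1 (-0.18 to -0.22), all 4 of CD74 (-0.04 to -0.17) and both of SLA-DMA (-0.06 and -0.11) had fitted differences below 0, and 29 of the 47 did (61.7%, against 45.3% of all probes). The sign did not hold within every breed. On SLA-DRA A_72_P561324 the CR mean was 9.80 in HS and 9.61 in TN. The F1 mean was 9.80 in HS and 9.68 in TN on CD74 A_72_P223292. On SLA-DMA A_72_P025111 the F1 mean was 10.62 in HS and 10.52 in TN. The LW mean was the lower in HS on each of these probes. Probes named for the same gene can measure the same RNA and are not taken as independent.

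On A_72_P640825 of SLA-DRA the TN arrays lay between 11.98 and 13.78 (median 12.86) and the HS arrays between 11.88 and 13.19 (median 12.70). The HS minus TN difference was -0.19 ± 0.13 (95% interval -0.46 to 0.08), and 10 of 17 HS arrays had a value under the TN average of the breed they belong to. The intervals were -0.54 to 0.11 for A_72_P545751 of SLA-DRB1, where TN arrays lay between 11.25 and 13.15 (median 12.14) and HS arrays between 10.995 and 12.56 (median 11.93), and -0.30 to 0.08 for A_72_P395573 of CD74, where TN arrays lay between 9.50 and 10.68 (median 9.94) and HS arrays between 9.37 and 10.16 (median 9.84). On the brightest SLA-DQB1 probe, A_72_P039061, the difference was -0.15 ± 0.11, and on the brightest SLA-DMA probe, A_72_P025111, it was -0.11 ± 0.09. The ranges of TN and HS arrays overlapped on each of these probes, and on each the highest array was a TN array and the lowest an HS array. On A_72_P640825 and A_72_P025111 the highest was LW TN 2, the array with the lowest weight (0.35) in the fit with array weights. Without any single array the differences on these probes ran from -0.24 to -0.13 and from -0.14 to -0.048.

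On the class I side B2M differences ran from -0.01 to 0.13, and on CUST_232_PI427286967 the TN arrays lay between 16.22 and 16.96 (median 16.60) and the HS arrays between 16.27 and 17.43 (median 16.61), with an interval of -0.02 to 0.28. SLA-1 probes ran from -0.20 to 0.19 and SLA-3 probes from -0.17 to 0.04. The brightest SLA-1 probe, CUST_30_PI427286967, gave 0.03 ± 0.12, with TN arrays between 16.41 and 17.50 (median 17.01) and HS arrays between 16.33 and 17.64 (median 17.07). The brightest SLA-3 probe, A_72_P649741, gave -0.03 ± 0.14, with TN arrays between 14.49 and 15.80 (median 15.31) and HS arrays between 14.53 and 15.88 (median 15.13). SLA-DQA1 gave 0.15 ± 0.31 on A_72_P743257 and -0.38 ± 0.28 on A_72_P765361.

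Class II molecules are mostly carried by leukocytes, and fewer such cells and less RNA per cell cannot be told apart in whole tissue. Of 13 myeloid cell markers, all 11 measured genes had HS minus TN differences below 0, as did 40.7% of all named genes. None passed by limma, and 3 of the 11 had an unadjusted p under 0.05, as did 938 of the 9824 named genes (median -0.14, against 0.02 over all named genes), with the scavenger receptor CD163 at -0.43 ± 0.13 and the complement gene C1QA at -0.25 ± 0.08. The mean of the 11 genes ranged from 8.75 to 9.55 in TN arrays and from 8.66 to 9.20 in HS arrays. All 4 general leukocyte markers were below 0 as well (median -0.06), as were all 5 measured endothelial markers (median -0.21), against the same 40.7% of all named genes. The T cell list was measured in 5 of its 9 genes and ran from -0.16 to 0.26, with CD3G well above background on 22 of the 33 arrays. CD79A (-0.19) and CD79B (0.21) were the B cell genes measured, with opposite signs, and neither passed. The 3 measured NK cell markers ran from -0.11 to 0.01. The haemoglobin gene HBB fell under HS (difference -1.15, limma adjusted p = 0.030). The part of these markers in the class II values was not tested.

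**Figure D4:**
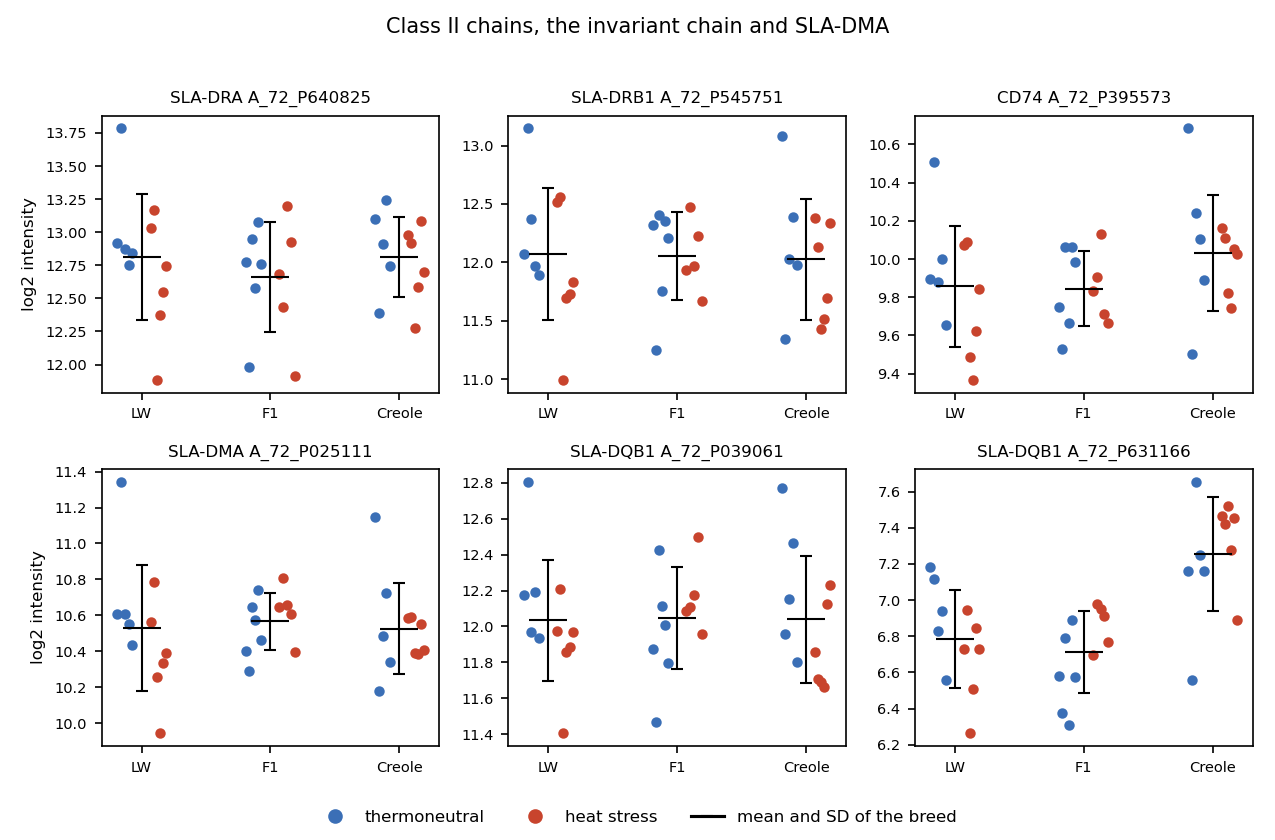
Log2 intensity of 6 probes of SLA-DRA, SLA-DRB1, CD74, SLA-DMA and SLA-DQB1 on each of the 33 arrays by breed (blue, thermoneutral; red, heat stress; bars, mean and SD of the 11 arrays of a breed; each panel has its own axis). Thermoneutral and heat stress arrays overlap in each breed in every panel, and LW TN 2 and CR TN 1 are the highest arrays of their breed on SLA-DRB1, CD74 and SLA-DMA.

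The response to heat was also fitted within each breed and compared between breeds. Within LW, CR and F1 none of the 47 probes passed, nor did any of the 45667 (0% in each), and at an unadjusted p under 0.05 the counts were 2, 0 and 3 of 47, against 6.8%, 5.85% and 5.68% of all probes. The interaction of breed and temperature passed on 0 of 47 and 0 of all probes (0%), with 5 of 47 at an unadjusted p under 0.05 (10.6%, against 4.25% of all). These 5 were 2 SLA-3 and 3 SLA-DQB1 probes. On A_72_P515992 of SLA-3 the F1 mean was 14.78 ± 0.58 (SD, n = 5) in HS and 13.73 ± 0.97 (n = 6) in TN, while the LW mean was 13.62 ± 0.30 (n = 6) in HS and 14.20 ± 0.13 (n = 5) in TN. The adjusted p of its interaction by limma was 0.93.

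The MHC probes varied widely between pigs of the same group. The residual SD within the 6 groups was in the top 10% of all probes for 26 of the 47 (55.3%), with a median of 0.38 against 0.20 over all probes, from 0.23 to 0.97. It was highest for SLA-1 A_72_P124686 and for the SLA-DQA1 probes.

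Some pairs of pigs had close values on all SLA probes. Over the 34 SLA probes the root mean square (RMS) difference between 2 arrays had a median of 0.73 over the 528 pairs and ran up to 1.64. In 4 pairs, chosen after their values were seen, it was 0.16 or less, namely LW HS 6 and LW TN 5 (0.098), CR HS 1 and CR HS 2 (0.13), CR HS 3 and CR HS 4 (0.14), and F1 HS 4 and F1 TN 3 (0.16). The next pair, from different breeds, stood at 0.28. All 4 pairs lay within a breed, 2 of them joined a TN and an HS pig, and 3 of the 4 were on different slides. The largest difference on any SLA probe was 0.22 in the closest pair and 0.33 in the fourth. Over all 45608 complete probes the same pairs differed by 0.25 to 0.28, and ranked 5, 4, 14 and 9 of the 528 pairs.

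**Figure D5:**
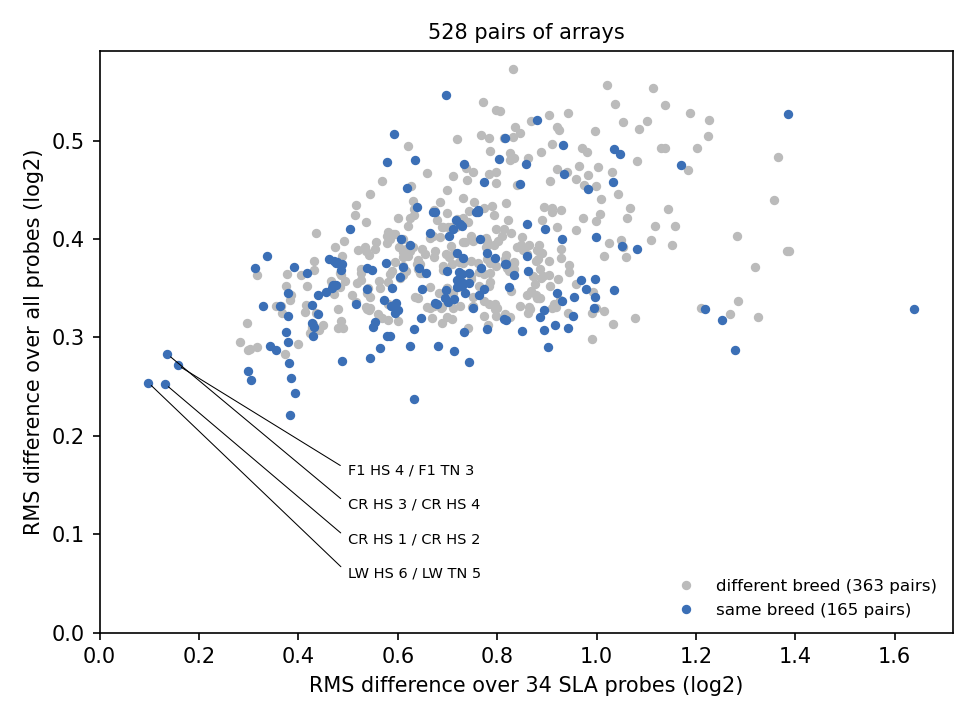
Each point is a pair of arrays, with the RMS log2 difference over the 34 SLA probes on the horizontal axis and over all probes on the vertical axis (blue, 165 pairs within a breed; grey, 363 pairs between breeds). The 4 named pairs lie left of all others at 0.16 or less, while on the vertical axis other pairs reach as low.

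Probes of the DR molecule varied together from pig to pig. Deviations from the group means correlated with a median r of 0.97 among the 4 SLA-DRB1 probes and 0.92 among the 7 SLA-DRA probes, against 0.73 among the 8 of SLA-3 and 0.55 among the 7 of SLA-1. Of 3 relations between genes computed on the brightest probes over the 33 arrays, SLA-DRA and SLA-DRB1 gave Pearson's r = 0.78 and Spearman's rho = 0.76, and SLA-DRA and CD74 gave r = 0.77 and rho = 0.82. Both had a permutation p of 1e-05, the smallest that 100000 resamples can give (1.5e-05 after Benjamini-Hochberg adjustment over the 3, two-sided). B2M and SLA-1 gave r = 0.62 and rho = 0.61 (permutation p = 0.0001 and 0.0003, adjusted 0.0001 and 0.0003). Without the 2 arrays farthest from the median of the first gene the r values were 0.75, 0.79 and 0.62, and with slide means removed 0.71, 0.71 and 0.62. Within the 4 slides of 7 or 8 arrays r ran from 0.16 to 0.95 for the first, from 0.63 to 0.76 for the second and from 0.13 to 0.91 for the third. These p-values take the pigs as unrelated, although some were littermates.

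Named genes whose deviations followed the brightest probes of B2M, SLA-DRA and CD74 most closely over the 33 arrays are given as a description. For B2M they included IFIT2 (r = 0.74), CXCL10 (0.72), ISG20 (0.70) and PPAT (0.69), of which IFIT2, CXCL10 and ISG20 are known interferon-stimulated genes. Without LW HS 3 their r values were 0.67, 0.73, 0.62 and 0.70. For SLA-DRA they were a probe the files name HLA-DRA (0.97), RAC2 (0.79), UBD (0.79), RCSD1 (0.76) and CST7 (0.74), where RAC2 and CST7 are genes of leukocytes. Whether the HLA-DRA probe measures SLA-DRA itself was not tested. For CD74 they were RNASE1 (0.85), SNX33 (0.85), WWTR1 (0.84), SLA-DMB (0.84) and COL6A3 (0.82).

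Other genes of the pathway were taken by their brightest probe. Of all 9824 named genes, 1 passed as higher and 2 as lower under heat stress. Between F1 and LW 155 of the 9824 passed, and between F1 and CR 777. Of 18 further MHC and MHC-like genes, 10 were measured. None passed for heat or between LW and CR (7.19% of all named genes passed the latter). SLA-6, a non-classical class I gene, was lower in F1 than in CR (difference -0.76, limma adjusted p = 0.0021) and than in LW (difference -0.57, limma adjusted p = 0.045), and CD1D, which presents lipids, was lower in F1 than in CR (difference -0.37, limma adjusted p = 0.0043). FCGRT, the neonatal Fc receptor and the brightest of the list, gave -0.08 for HS minus TN and 0.15 for LW minus CR. Of 15 genes of class I peptide loading, which cut, transport and fit peptides onto class I, 13 were measured and 0 passed in any of these comparisons, with LW minus CR differences from -0.06 to 0.15 and the chaperone CALR, the brightest, at 0.01.

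Of 18 genes of class II processing and control, 16 were measured and 0 passed for heat (smallest limma adjusted p = 0.27). The lysosomal protease CTSB was higher in LW than in CR (difference 0.18, limma adjusted p = 0.034). CTSS, the protease that trims the invariant chain, was lower in F1 than in LW (difference -0.48, limma adjusted p = 0.0057) and than in CR (difference -0.29, limma adjusted p = 0.049), and its HS minus TN difference was -0.23. The co-stimulatory receptor CD40 was lower in F1 than in CR (difference -0.38, limma adjusted p = 0.032). Of 20 interferon signalling genes, 18 were measured and 0 passed for heat or between LW and CR. The receptor chain IFNGR1 (difference -0.46, limma adjusted p = 0.0012) and the chemokine CXCL10 (difference -0.99, limma adjusted p = 0.012) were lower in F1 than in CR, and MX1, the brightest, gave -0.01 for HS minus TN. The F1, LW and CR comparisons share arrays and are not independent of each other.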

How the data were processed

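Per the labels and the methods of the study, pituitary RNA of 33 pigs was read by Agilent Feature Extraction 10.10.1.1. The authors deposited log2 values of 45667 probes, made from the median intensity by quantile normalization without background correction, which is the main input here. The deposited scanner files hold the pixel intensity, local background and processed intensity of each spot, and supplied probe names, sequences, background flags and the alternatives. For the 47 probes the values of the table and those recomputed from the scanner files differed by at most 0.0082. No depth is defined for arrays, whose number limits the precision.

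The 10 genes, the gene lists and the tests were chosen with earlier results of these data known. limma 3.58.1 in R 4.3.3 was fitted to all probes with breed and temperature, and with 1 mean per group for responses within breeds and their interaction (F test), with eBayes moderation and Benjamini-Hochberg adjustment over all probes (threshold 0.05). The study's random terms (pen, slaughter day, parents) are not in the labels and were not fitted. The code was tested on simulated data. Named are the brightest probe of each member gene, probes past the threshold (beyond 10, the 10 with the largest difference) and, per list and comparison, up to 5 genes past the threshold and the brightest gene. Alternatives were other processing of the scanner files, a background filter, slide as a block, array weights, the breed of LW HS 3, no breed term and leaving out each array. Names were updated through RefSeq (Sscrofa11.1), which gave a symbol to 22949 of 60305 probes. No coordinates are given since the files name no genome build. Among the genes most like B2M, 1 is not reported here.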

Additional observations from a re-analysis of the deposited data

Results flagged for a closer look

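Among 20 probes in 6 groups, 120 sets of values were tested by Dixon's criterion, and 11 values stood apart from the rest of their group, where chance alone gives about 1 in 20. They came from the arrays CR HS 5, LW TN 2, CR HS 6, CR TN 3 and F1 TN 4, and some from overlapping probes of a gene, so they are not independent. CR HS 5 was set apart upward on 4 probes, at 16.84 on B2M CUST_232_PI427286967 (next 16.52), 16.54 on A_72_P441589 (next 16.14), 14.20 on A_72_P739834 (next 13.72) and 12.94 on SLA-3 A_72_P625308 (next 11.60). LW TN 2 was set apart upward on SLA-DRA A_72_P640825 at 13.78 (next 12.92), on SLA-DMA A_72_P025111 at 11.34 (next 10.61) and on SLA-3 A_72_P625308 at 13.94 (next 13.08). CR HS 6 was set apart downward on SLA-1 CUST_30_PI427286967 at 16.33 (next 17.17) and on SLA-DQA1 A_72_P743257 at 6.18 (next 8.95). CR TN 3 was high on B2M CUST_232_PI427286967 at 16.61 (next 16.38), and F1 TN 4 was low on SLA-3 A_72_P625308 at 11.53 (next 12.63).

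On 2 probes every HS array of F1 lay above the F1 TN mean and every HS array of LW below the LW TN mean. The mean shifts differed by 1.63 on SLA-3 A_72_P515992 and by 0.55 on SLA-DQB1 A_72_P039061. The interaction tests of both had an adjusted p by limma of 0.93.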

How the results depend on the processing

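No member probe passed for heat stress, within any breed or for the interaction under any alternative fitted or without any array. Between LW and CR 6 probes passed, 2 with LW HS 3 taken as Creole, 8 with array weights, and 6 to 7 when each array was left out. Between F1 and LW 4 passed, 1 with the processed intensity, 7 with array weights, 1 with LW HS 3 taken as Creole, 2 with it left out, and 1 to 7 when each array was left out. Between F1 and CR 5 passed, 2 with LW HS 3 taken as Creole and 2 to 6 when each array was left out. Slide as a fixed or random block, normexp correction, recomputed quantile values and the background filter left the counts at 6, 4 and 5. The sign of 3 small heat stress differences turned. SLA-3 A_72_P649741 was 0.0087 with the processed intensity and -0.081 to 0.011 without single arrays. SLA-1 CUST_30_PI427286967 was -0.015 with array weights and -0.015 to 0.075 without single arrays. SLA-DQA1 A_72_P743257 was -0.11 with array weights and -0.053 to 0.30 without single arrays. The causes were not tested. No paired analysis was possible because the labels give no replicate numbers, litters or pairs. No member was at background level on any array. Contrasts within a breed rest on 5 or 6 arrays per group.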
